A study of Mus musculus with 130 samples.

Results

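Ferroptosis is an iron-dependent form of cell death in which phospholipids that carry polyunsaturated fatty acids are oxidised in membranes. The liver stores most of the body's surplus iron, so a liver loaded with dietary iron is a place where the genes that set this sensitivity can be read out. 8 such genes were followed here: the cystine importer subunits Slc7a11 and Slc3a2, the defence enzymes Gpx4 and Aifm2, the lipid-remodelling enzymes Acsl4 and Lpcat3, the mitochondrial outer-membrane protein Cisd1, and Ptgs2, whose transcript is often used as a marker of the process. They were listed by symbol for their known roles and matched to Ensembl identifiers. All 8 were found among the 35274 genes of the diet table and among the 35711 genes of the strain panel table.

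Liver RNA from 130 male mice was sequenced with a stranded mRNA kit, 1 library per mouse. The diet study used C57BL/6J mice alone, 3 per group, in 5 groups. One group ate chow, and 2 ate diets with 50 ppm (sufficient) or 500 ppm (elevated) iron. The last 2 ate 2% carbonyl iron (20000 ppm), in one case with cellulose as the source of fibre. The panel held 114 inbred strains, which were given chow for 4 weeks and thereafter 2% carbonyl iron for 6 weeks. Its recombinant inbred families were BXD (56 strains), AXB/BXA (20), BXH (4) and CXB (3), and 31 strains belonged to none of these. Each strain was 1 mouse, except 129X1/SvJ with 2, so a strain's value also holds the variation between mice. The panel has no mice on a low-iron diet, and neither the age of the animals nor the feeding time of the diet study is given in the sources used here.

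Diet libraries held 10.4 M to 20.4 M counts and panel libraries 9.41 M to 20.6 M. Levels are given as counts per 1000000 counts of the library (CPM) scaled with TMM factors, which can be compared between mice but not between genes. Levels of different genes are compared only as TPM, the same kind of scale counted in transcripts, which allows for transcript length. A gene is called changed when its Benjamini-Hochberg adjusted p in edgeR's quasi-likelihood test, over all genes tested, is under 0.05, and these p-values measure only the spread between these mice. 1 panel library, labelled BXD65/RwwJ, carried 3.94 CPM of 4 Y-linked genes against 118 to 328 CPM in the others. In pieces of whole liver, fewer cells of a type and less RNA per cell cannot be told apart.

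Cystine taken up by the Slc7a11 and Slc3a2 heterodimer, known as system xc-, is reduced to cysteine and built into glutathione, which Gpx4 spends to reduce lipid hydroperoxides. Aifm2, also called FSP1, works beside it by keeping ubiquinone and vitamin K reduced in membranes. Acsl4 activates arachidonic and adrenic acid, and Lpcat3 inserts polyunsaturated chains into phospholipids, so both supply the substrate that is oxidised. Hepatocytes can also make cysteine from methionine through transsulphuration, and they are known to carry little Slc7a11.

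Slc7a11 is the member for which the strain panel held the widest range, and its transcription is known to be driven by NRF2 through antioxidant response elements and by ATF4 through amino acid response elements. Its upstream sequence is therefore shown. Both strands of the 250 bases before the RefSeq start of each member were searched for the antioxidant core TGANNNNGC and the amino acid core TGATGNAA, where N is any base. The printed stretch is the minus strand of chr3:50443644-50443723 (RefSeq, GRCm38.p6), from 110 to 31 bases before the start, with every matching base in capitals.

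Slc7a11: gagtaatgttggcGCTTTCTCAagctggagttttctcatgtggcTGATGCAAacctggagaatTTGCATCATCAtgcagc

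The window held 2 amino acid cores, 1 on each strand, and 2 antioxidant cores on the opposite strand, the second of which overlaps an amino acid core. The amino acid core occurred in 3.45% and the antioxidant core in 35.2% of 32851 mouse windows of the same length. All 8 members had a window, and no other member's window held the amino acid core. Acsl4 had 2 antioxidant cores and Ptgs2 had 1. A match is a description of letters and not a binding site.

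In the 50 ppm mice the members spanned a wide range of abundance per length. Gpx4 stood at 323 ± 36.9 TPM (SD, n = 3), followed by Cisd1 at 104.3 ± 10.97 and Lpcat3 at 57.5 ± 5.001 TPM. Slc3a2 had 22.4 ± 4.55 TPM, while Acsl4 (16.7 ± 5.39) and Aifm2 (13.9 ± 0.998) did not separate beyond their spread. Slc7a11 reached 0.512 ± 0.157 TPM, and Ptgs2 had no counts at all. Gpx4 transcripts were thus plentiful and those of the specific subunit of the cystine importer scarce.

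Among the cystine importer subunits, Slc3a2 (ENSMUSG00000010095; chromosome 19, 8706882 to 8723369), the heavy chain shared with other amino acid transporters, rose on 2% iron. The mice fed 50 ppm had 29.6, 27.8 and 23.2 CPM, and those fed 500 ppm had 27.03, 30.8 and 27.9 CPM. On 2% iron they had 37.04, 40.3 and 39.1 CPM, and with cellulose 40.3, 42.5 and 41.1 CPM. The chow mice lay at 28.5, 32.7 and 27.3 CPM. All 6 mice on 2% iron were therefore above all 9 mice on the other diets.

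Against 50 ppm the change was 1.45-fold (log2 0.53 ± 0.097 SE, adjusted p = 0.0034, edgeR), and it was the single call among the 7 tested members, where 15.7% of the 13560 genes tested were called, 8.52% higher and 7.17% lower. It passed in each of 14 alternative analyses, with log2 values from 0.43 to 0.82. The upper end came from TPM, on which the change was 0.82 on the log2(TPM + 0.1) scale. Slc3a2 was also higher on 2% iron than on 500 ppm (log2 0.44 ± 0.096, adjusted p = 0.0101), a contrast with 11.3% of genes called (6.59% higher, 4.75% lower). Without 500 ppm replicate 1 that adjusted p was 0.0508. Against chow the change was 0.40 ± 0.096 (adjusted p = 0.0093), with 22.8% of genes called (11.9% higher, 10.9% lower). In the cellulose mice it was 0.62 ± 0.097 above 50 ppm (adjusted p = 5.9e-04), with 29.7% called (15.4% higher, 14.3% lower).

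Slc7a11 (ENSMUSG00000027737; chromosome 3, 49892526 to 50443614), the subunit that carries cystine and glutamate, was not called in any diet contrast. The 50 ppm mice had 1.26, 1.84 and 1.74 CPM and the 2% iron mice 1.33, 0.800 and 1.79 CPM. Chow mice had 1.32, 1.86 and 1.96 CPM, and 500 ppm mice 1.98, 2.57 and 1.51 CPM. The cellulose mice had 2.17, 2.21 and 2.31 CPM. The 2% iron and 50 ppm groups overlapped, with a log2 difference of -0.30 ± 0.32 (adjusted p = 0.568, edgeR). The cellulose mice lay above the 50 ppm, 2% iron and chow mice without overlap, but the 500 ppm mice overlapped them and held the highest value of all. The difference of cellulose from 2% iron (log2 0.76 ± 0.31, adjusted p = 0.317) was not called. These values rest on 9.02 to 53.4 estimated counts per library, which limits their precision. Slc7a11 also overlaps 3 genes on the other strand, the antisense gene Gm37854 and the processed pseudogenes Gm37826 and Gm2345. On its own strand it overlaps Gm37498 and the processed pseudogene Gm37692.

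**Figure D1:**
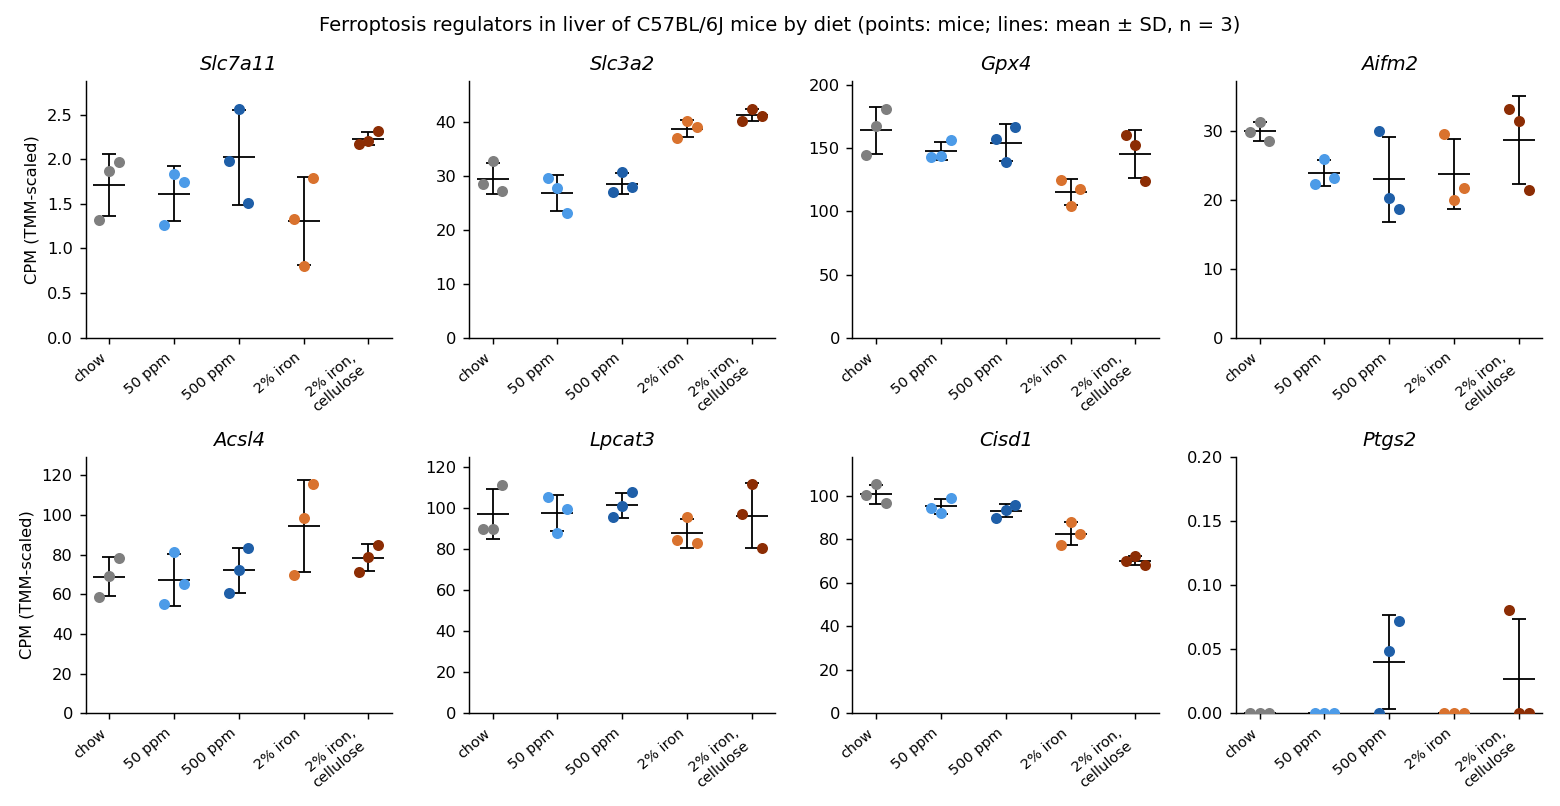
CPM of the 8 members in each of the 15 C57BL/6J mice by diet, with the y axis starting at 0; points are mice and black lines the mean ± SD of 3. Slc3a2 is higher in all 6 mice on 2% iron than in the other 9, Gpx4 is low in the 2% iron group not labelled with cellulose, and Cisd1 is lowest in the cellulose group.

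Gpx4 (ENSMUSG00000075706; chromosome 10, 80047166 to 80056439), the selenoenzyme that reduces lipid hydroperoxides, was lower on 2% iron. Its CPM was 124.8, 105 and 118 in the 2% iron mice, against 143, 144 and 156.4 on 50 ppm. The 500 ppm mice had 157, 139 and 167 CPM and the chow mice 144, 167 and 181. The 3 mice on 2% iron thus lay below all 9 mice on chow, 50 ppm or 500 ppm.

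The fall was called against chow (log2 -0.51 ± 0.12, adjusted p = 0.0072, edgeR) and against 500 ppm (-0.42 ± 0.12, adjusted p = 0.0352). Against 50 ppm it was -0.35 ± 0.12 and narrowly missed the threshold (adjusted p = 0.0563), although those groups did not overlap either. Of 15 alternatives 5 called it there, among them DESeq2 (adjusted p = 0.0258) and RLE scaling (0.0496). It was not called by limma on log2(TPM + 1) (adjusted p = 0.138). Nor was it called by edgeR without any 1 mouse of either group (adjusted p from 0.0607 to 0.175). The call against 500 ppm was lost without replicate 2 (adjusted p = 0.120) or replicate 3 (0.0863) of 2% iron. It was also lost without replicate 1 (0.102) or replicate 3 (0.119) of 500 ppm.

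The cellulose mice had 161, 152 and 124 CPM of Gpx4, which overlapped the 50 ppm mice (log2 -0.02 ± 0.12, adjusted p = 0.909). The direct difference between both 2% diets was 0.33 ± 0.12 and not called (adjusted p = 0.259). In that contrast 0.0811% of genes were called by edgeR (0.00737% higher and 0.0737% lower with cellulose) and no member was, with 3 members under an unadjusted p of 0.05 and none called by DESeq2. A processed pseudogene, Gpx4-ps2, may share reads with Gpx4, with up to 191 estimated counts in the diet libraries. Summing both, an alternative chosen after seeing the data, gave -0.40 against 50 ppm (adjusted p = 0.0347) and -0.36 against 500 ppm (adjusted p = 0.0619).

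Aifm2 (ENSMUSG00000020085; chromosome 10, 61715263 to 61739260) was not called in any diet contrast. Its 2% iron mice, at 29.6, 20.0 and 21.8 CPM, surrounded the 50 ppm mice at 22.4, 26.003 and 23.3 CPM, and the log2 difference was 0.00 ± 0.20 (adjusted p = 0.992, edgeR). Chow mice, at 29.99, 31.4 and 28.6 CPM, lay above the 50 ppm mice without overlap (log2 0.33 ± 0.20, adjusted p = 0.624). In chow against 50 ppm 0.391% of genes were called (0.265% higher, 0.125% lower) and no member, with none under an unadjusted p of 0.05 and none by DESeq2. The gene overlaps H2afy2 on the other strand, and whether the authors' counting used strand is not given in the sources used here.

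On the substrate side, Acsl4 (ENSMUSG00000031278; chromosome X, 142317993 to 142390535) had its 2 highest values on 2% iron, at 69.7, 98.3 and 116 CPM. The 50 ppm mice had 55.3, 81.2 and 65.2 CPM, so the groups overlapped. The log2 difference of 0.49 ± 0.19 was not called (adjusted p = 0.0892, edgeR). Of 14 alternatives only that without 2% iron replicate 1 called it (0.66, adjusted p = 0.0298). With cellulose the values were 71.3, 79.04 and 84.9 CPM, which overlapped the 50 ppm mice.

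Lpcat3 (ENSMUSG00000004270; chromosome 6, 124663027 to 124704418) varied little with diet. Its group means lay between 87.7 ± 7.03 CPM on 2% iron and 101 ± 6.02 CPM on 500 ppm (SD, n = 3). The log2 difference of 2% iron from 50 ppm was -0.16 ± 0.12 (adjusted p = 0.433, edgeR). Lpcat3 overlaps Emg1 on the other strand.

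Cisd1 (ENSMUSG00000037710; chromosome 10, 71330480 to 71344954), also called mitoNEET, carries an iron-sulphur cluster and limits iron uptake into mitochondria. It stood at 94.5, 91.9 and 98.9 CPM on 50 ppm, 77.3, 88.1 and 82.3 CPM on 2% iron, and 70.2, 72.2 and 68.1 CPM with cellulose. The 3 groups did not overlap one another. Chow mice had 100.2, 105 and 96.6 CPM and 500 ppm mice 89.9, 93.3 and 95.8 CPM, all above every mouse on 2% iron.

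Cisd1 fell by 0.44 ± 0.072 on the log2 scale in the cellulose mice against 50 ppm (adjusted p = 7.4e-04, edgeR), a call kept in all 14 alternatives. It also fell against chow on 2% iron (log2 -0.29 ± 0.071, adjusted p = 0.0107). Against 50 ppm on 2% iron the value was -0.20 ± 0.072 (adjusted p = 0.0702, edgeR). Of 14 alternatives only DESeq2 called it (adjusted p = 0.0293). Between both 2% diets the difference was -0.23 ± 0.072 (adjusted p = 0.200).

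Ptgs2 (ENSMUSG00000032487; chromosome 1, 150100031 to 150108227), the inducible cyclooxygenase, passed no filter on low counts. It had 0 counts in the chow, 50 ppm and 2% iron mice, which allows up to 0.0871 CPM on 2% iron, counting error only. The 500 ppm mice had 2 counts between them and the cellulose mice 1. Its transcript was thus not detectable as a response at this depth.

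From 50 to 500 ppm, none of the 7 tested members was called by edgeR, none had an unadjusted p under 0.05, and none was called by DESeq2. Over all genes 0% were called, with 428 of 13560 under an unadjusted p of 0.05 and 2 called by DESeq2. The contrasts above share groups with one another, so their values are given side by side and not as independent evidence. For 2% iron, the members called numbered 1 of 7 against 50 ppm (15.7% of all genes), 2 against 500 ppm (11.3%) and 3 against chow (22.8%). For cellulose against 50 ppm they numbered 2 (29.7%). With 7 members, 1 called against 50 ppm and 2 with cellulose are close to the share over all genes. On TPM with limma, no member was called against 500 ppm or chow.

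**Figure D2:**
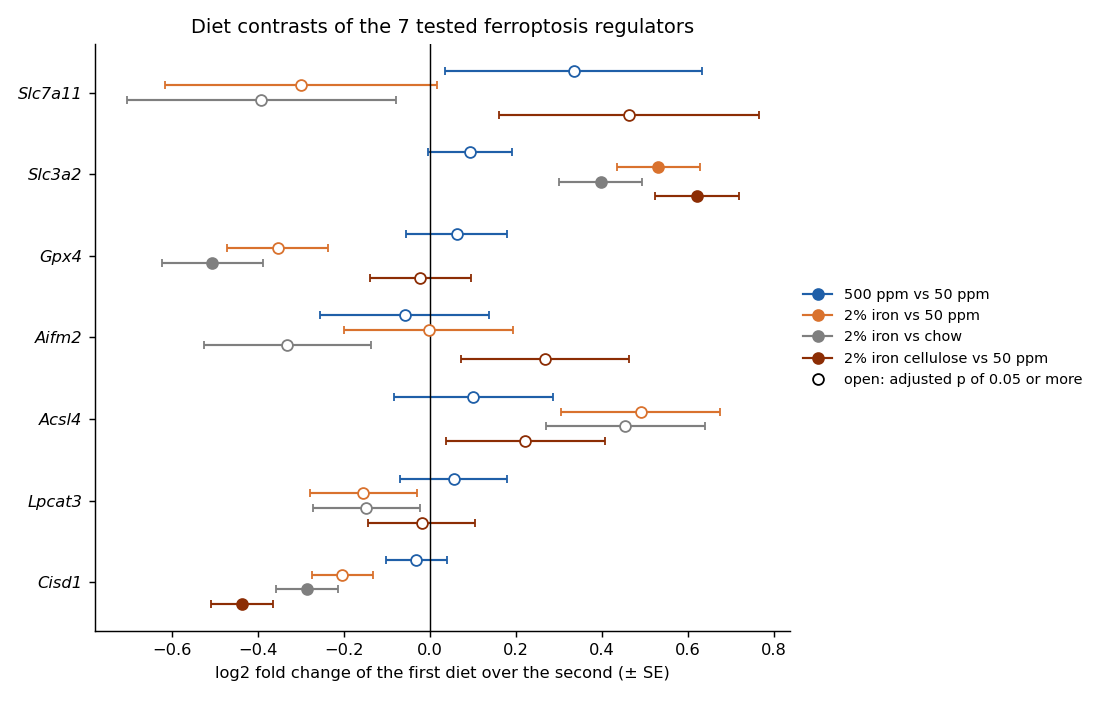
Log2 fold change ± SE of the 7 tested members in 4 diet contrasts from edgeR's fit of 15 mice; filled points have an adjusted p under 0.05 and open points do not. Filled points are Slc3a2 in all 3 contrasts with a 2% iron diet, Gpx4 and Cisd1 on 2% iron against chow, and Cisd1 in the cellulose mice.

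Markers of macrophages and of some other cells also differed on the 2% diets. The summed level of 9 Kupffer cell and macrophage markers was 550 to 575 CPM on 2% iron and 535 to 808 with cellulose, against 127 to 242 CPM in the other 9 mice, and 8 of the 9 markers were called higher than on 50 ppm. The Kupffer marker Clec4f went from 47.9 ± 10.5 to 148 ± 5.23 CPM (SD, n = 3). The 6 hepatocyte markers summed to 89837 to 95276 CPM on 2% iron and 75305 to 86807 on 50 ppm, a sum in which Alb had the largest share (74572 and 55855 CPM on average, not called). Apoa1 and Serpina1c were called lower and no hepatocyte marker higher, and against chow Ass1 was called lower too. Endothelial markers reached 262 to 285 CPM against 186.3 to 229, with Stab2 the 1 of 5 called. Erythroid markers reached 178 to 269 CPM on 2% iron and 92.3 to 235 with cellulose, against 60.1 to 98.3 on 50 ppm, and of the 3 tested Hba-a1 and Hbb-bt were called higher and Alas2 lower. Neutrophil markers reached 2.901 to 10.2 CPM on 2% iron and 5.56 to 55.9 with cellulose, against 0.194 to 0.829 on 50 ppm and 0.0861 to 5.62 on 500 ppm. Of the 3 neutrophil markers tested on 2% iron against 50 ppm, edgeR called none, 1 had an unadjusted p under 0.05, DESeq2 called 1 and limma none. Stellate (236 to 343), cholangiocyte (26.4 to 52.1) and lymphocyte (2.56 to 6.13) sums overlapped the 50 ppm range. Against chow, where Gpx4 and Cisd1 were called, the stellate sums did not overlap (174 to 194 CPM on chow) and 4 of 6 stellate markers were called higher. Exocrine pancreas markers summed to at most 12.7 CPM in any diet group, with 3 or 4 of 5 genes at 0. The part of these cells in the members' differences was not tested.

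The wider pathway was read from a list of 70 genes in 7 roles, of which 65 could be tested. On 2% iron against 50 ppm 15 were called, 10 higher and 5 lower, that is 23.1% of the list beside 15.7% of all genes. The list's median log2 change was 0.00, next to 0.01 over all genes. The largest called rises were those of Hmox1, Alox12, Slc40a1, Nqo1 and Ftl1, each larger than the change of Slc3a2.

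Iron supply and storage had 5 of 11 genes called. Hmox1, the haem oxygenase that releases iron from haem, rose from 10.01 ± 3.42 to 51.8 ± 7.08 CPM (SD, n = 3; log2 2.36 ± 0.52 SE, adjusted p = 0.0084, edgeR). Slc40a1, the iron exporter ferroportin, rose from 136 ± 16.6 to 395 ± 38.3 CPM (log2 1.54). Ftl1, the ferritin light chain, rose from 1932 ± 62.4 to 4827 ± 150.2 CPM (log2 1.32). Slc39a14, an importer of iron not bound to transferrin, rose by 0.51 on the log2 scale, and Steap3, a ferrireductase, fell by 0.63.

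Among lipid genes, 3 of 14 were called, and their directions differed. Alox12, a lipoxygenase, rose from 0.844 ± 0.453 to 3.83 ± 0.266 CPM (log2 2.19, adjusted p = 0.0320, edgeR). Acsl1, which activates long-chain fatty acids for storage and oxidation, fell from 1575 ± 313 to 810 ± 225 CPM (log2 -0.96, adjusted p = 0.0230). Pla2g6, a phospholipase, fell by 0.56 on the log2 scale.

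Among the ubiquinone, vitamin K and tetrahydrobiopterin genes, 2 of 8 were called, 1 higher and 1 lower, with a median log2 change of -0.19. Nqo1, a quinone reductase and NRF2 target, rose from 3.40 ± 0.547 to 9.41 ± 0.747 CPM (log2 1.46, adjusted p = 0.0060, edgeR). The stress and control group had 4 of 11 called, all higher: Sat1 (log2 0.64), Sesn2 (0.51), Keap1 (0.35) and Trp53 (0.35). Of 5 mitochondrial genes, the cysteine desulphurase Nfs1 fell by 0.31 on the log2 scale.

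The genes that make glutathione and supply selenium were not among them. Of 9 cystine and glutathione genes none was called by edgeR, 3 had an unadjusted p under 0.05, and DESeq2 called 1. Of 7 selenium and selenoprotein genes none was called, 2 had an unadjusted p under 0.05, and DESeq2 called none. The list's count rests on few mice: without any 1 mouse of these groups it ranged from 5 to 13 called genes, and the lowest was without 50 ppm replicate 1. Against chow 24 of 65 were called, 11 higher and 13 lower, that is 36.9% beside 22.8% of all genes. They included Cth, the last enzyme of transsulphuration, at 118 CPM on 2% iron and 466.2 on chow (log2 -1.99), which was not called against 50 ppm. In chow against 50 ppm, 1 of 9 cystine and glutathione genes was called, higher on chow. The part of other diet differences in the chow contrast was not tested.

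With cellulose, 33 of the 65 genes were called against 50 ppm (20 higher, 13 lower), that is 50.8% beside 29.7% of all genes. These included 5 of 9 cystine and glutathione genes. Gclc, which catalyses the first step of glutathione synthesis, rose from 249 ± 22.5 to 468 ± 95.4 CPM (SD, n = 3; log2 0.91, adjusted p = 0.0021, edgeR). Gss (log2 0.58) and Gsr (0.56) were also higher, while Cbs (-0.43) and Cth (-0.75), both of transsulphuration, were lower. In the stress group, Atf4 (log2 0.44), Atf3 (3.08) and Trib3 (1.07) were higher.

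The direct contrast of both 2% diets called none of the 65 genes by edgeR, 14 had an unadjusted p under 0.05, and DESeq2 called 1. A difference between the diets in this list was therefore not shown.

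**Figure D3:**
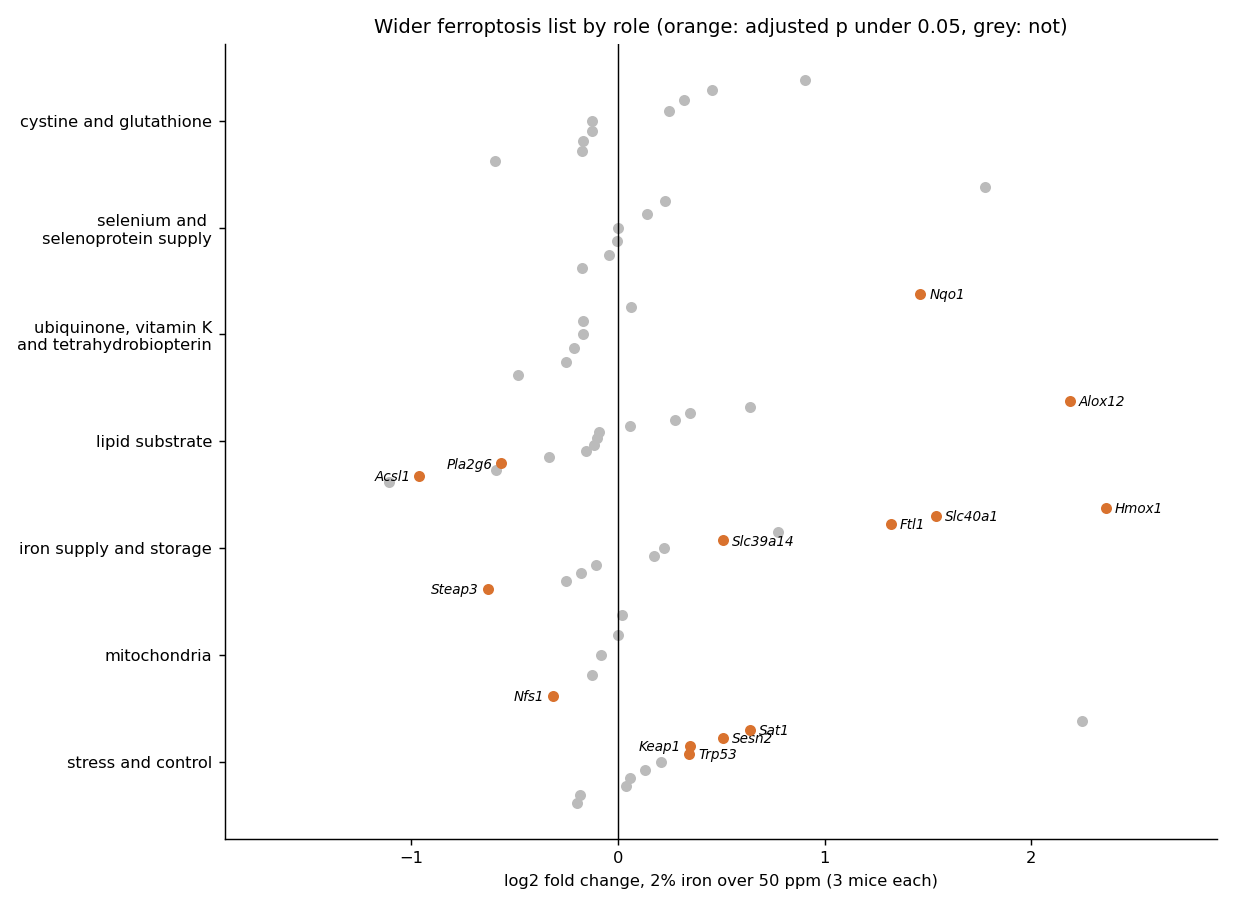
Log2 fold change on 2% iron over 50 ppm for the tested genes of the wider list, by role, with 1 gene not shown; orange points have an adjusted p under 0.05 and carry their symbol, grey points do not. The largest called rises are Hmox1 (2.36), Alox12 (2.19) and Slc40a1 (1.54), while the cystine and selenium rows hold grey points alone.

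Across the 114 strains, all on 2% iron, the members differed in how far they ranged. Slc7a11 ran from 0.986 CPM in NOD/ShiLtJ through a median of 2.52 to 50.5 CPM in BXH2/TyJ, a 51.3-fold span, but the next strain, BTBR T<+> tf/J, had 9.34 CPM. Slc3a2 ran from 30.7 CPM in BXD14/TyJ through a median of 41.6 to 116 CPM in BXD43/RwwJ, with BXH2/TyJ second at 101 CPM. BXH2/TyJ was thus the highest or second highest strain for both importer subunits.

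Gpx4 had a narrow span of 2.13-fold, from 109 CPM in BXD69/RwwJ through a median of 148 to 233 CPM in BXH2/TyJ. C57BL/6J, the strain of the diet study, had 116 CPM, the lowest of the 31 other inbred strains. Aifm2 spanned 4.80-fold, from 11.4 CPM in BXD29/Ty through a median of 30.9 to 54.9 CPM in BALB/cByJ. Each strain is 1 mouse here, so these spans also hold the variation between mice.

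Acsl4 ran from 45.7 CPM in LG/J through a median of 82.0 to 189 CPM in BALB/cJ, with BXH2/TyJ second at 150.4 CPM. The related substrain BALB/cByJ had 95.5 CPM of Acsl4, and each value is 1 mouse. Lpcat3 ran from 37.9 CPM in NZB/BlNJ through a median of 103.6 to 159.9 CPM in BXD55/RwwJ, and NZB/BlNJ lay well below the next lowest strain, BXD74/RwwJ, at 62.3 CPM. Cisd1 ran from 39.2 CPM in BTBR T<+> tf/J through a median of 85.9 to 121 CPM in BXD67/RwwJ, and the next lowest strain, BXD48/RwwJ, had 55.5 CPM. BTBR T<+> tf/J thus had the lowest Cisd1 and the second highest Slc7a11 of the panel.

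Ptgs2 had counts in 29 of 115 panel libraries, 45 in all. The highest was KK/HlJ with 9 counts (0.751 CPM), and BXH2/TyJ had none. The rank of most strains for Ptgs2 is therefore not defined at this depth.

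To set the strain range against the variation between mice of 1 strain and diet, the SD of log2 CPM over strains was divided by the pooled SD within diet groups. The 2 sets of libraries were deposited in separate tables, so these ratios are descriptions. The median ratio over 12346 genes was 1.69. Cisd1 had a ratio of 4.25, above 98.2% of those genes, with SDs of 0.26 over strains and 0.06 within diet groups. Slc3a2 (2.99) and Lpcat3 (2.19) followed.

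Slc7a11 (1.78), Aifm2 (1.55), Gpx4 (1.47) and Acsl4 (1.34) lay near or under the median of all genes. Without BXH2/TyJ the ratio of Slc7a11 was 1.32. The 2 mice of 129X1/SvJ had 88.1 and 91.8 CPM of Cisd1 and 37.9 and 40.5 CPM of Slc3a2, but 2.89 and 1.501 CPM of Slc7a11. Single-mouse values were thus closer for the first 2 genes than for Slc7a11.

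**Figure D4:**
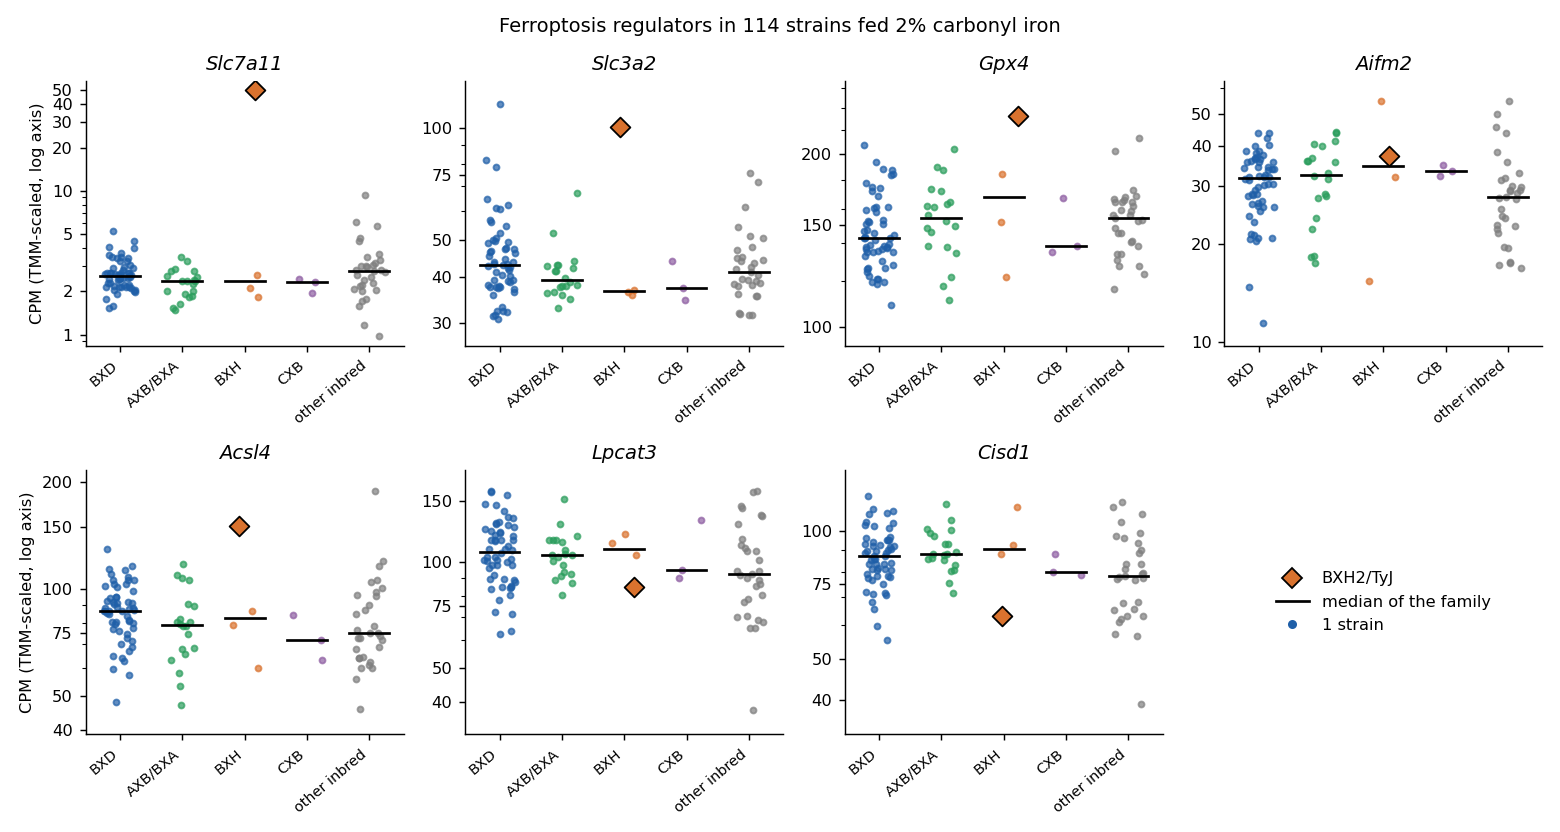
CPM of 7 members on log axes in 114 strains fed 2% carbonyl iron, by strain family; dots are strains, black lines family medians and the diamond is BXH2/TyJ. BXH2/TyJ is highest for Slc7a11 (50.5 CPM) and Gpx4 (233 CPM), second for Slc3a2 and Acsl4, and in the lower part of the range for Lpcat3 and Cisd1.

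BXH2/TyJ was the highest or second highest strain for 4 members. The share of all genes for which it ranked so was not computed, so this count has no background beside it. The BXH family descends from C57BL/6J and C3H/HeJ, which had 1.58 and 3.18 CPM of Slc7a11, and the other 3 BXH strains had 1.82 to 2.60 CPM. For Cisd1 and Lpcat3 it ranked 107 and 95 of 114 from the highest, at 63.2 and 84.97 CPM.

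Of the wider list, BXH2/TyJ was the highest strain for Trib3 (62.0 CPM, other strains at most 39.97), the ATF4 target, and for Gss (87.2 CPM, at most 85.7), Lrp8, Cyb5r1 and Sat1. It was second for Atf4 (103.8 CPM), Atf3, Gsr, Txnrd1 and Fth1. It was lowest for Selenop (3842 CPM, others at least 4038) and Sephs2 (418 CPM, at least 427). NZB/BlNJ was the highest for Atf4 (114 CPM) and Gsr (131 CPM). That strain was also the highest for Sesn2, Nqo1 and Fth1 and the lowest for Acsl1, Fads1 and Fads2. Extreme ranks in this list were therefore not particular to BXH2/TyJ. Selenop encodes the selenium carrier that the liver secretes.

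Other cell markers differed in this library too: neutrophil markers summed to 124 CPM against 0.255 to 113 CPM in the other 113 strains, with a median of 3.81. The Kupffer sum was 226 CPM against 201 to 999, and Clec4f, Timd4 and Cd5l were each the lowest of all strains. The part of these cells in the members' values was not tested. All values of BXH2/TyJ come from 1 mouse.

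The BXD strains descend from C57BL/6J and DBA/2J, and the AXB/BXA strains from A/J and C57BL/6J. None of the 7 tested members was called between 56 BXD and 20 AXB/BXA strains by edgeR, where 11.6% of 13794 genes were called (6.62% higher, 5.02% lower). 1 member had an unadjusted p under 0.05, and DESeq2 called none. Slc7a11 came nearest, at 2.69 ± 0.708 CPM in BXD and 2.31 ± 0.543 in AXB/BXA (SD; log2 0.22, adjusted p = 0.131). The parents, 1 mouse each and so not comparable with family means, had unlike values for some members. DBA/2J had 142.5 CPM of Lpcat3, while C57BL/6J had 94.3 and A/J 90.4 CPM. DBA/2J and A/J had 165 and 165 CPM of Gpx4 against 116 CPM in C57BL/6J.

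Whether members varied together was asked with 60 relations of log2 CPM over the 114 strains, 28 between members and 32 of members with Bmp6, a signal of liver iron, Nqo1, Cd68, a macrophage marker, and Trib3. Permutation p-values were adjusted over the 60. By Pearson's r 21 were called, 14 positive and 7 negative, and by Spearman's rho 4. The share called among pairs of other genes was not computed, so these counts are not a trait shown to be particular to the members. Without BXH2/TyJ, r called 10, which shows how far 1 mouse carried the count. Relations were also repeated within families. No batch is labelled, so the part of a batch in these values was not tested.

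The closest pair was Cisd1 and Lpcat3 (r = 0.62, rho = 0.65, n = 114; adjusted permutation p = 3.0e-04 for both, from the smallest p these permutations can give). It was nearly the same without the 2 strains farthest in Cisd1 (r = 0.60), in the 56 BXD strains (r = 0.61) and in the 31 other inbred strains (0.64). In the 20 AXB/BXA strains r was 0.41 and not called (adjusted permutation p = 0.448). Strains with much Cisd1 thus tended to have much Lpcat3. Cisd1 was also lower where Cd68 was higher (r = -0.38, rho = -0.36; adjusted permutation p = 8.0e-04 and 0.0014). This relation was called within the other inbred strains (r = -0.63) and not within BXD (-0.22) or AXB/BXA (-0.40).

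Gpx4 and Aifm2, the enzymes of the 2 defence arms, were higher in the same strains (r = 0.37, rho = 0.43, n = 114; adjusted permutation p = 0.0018 and 3.0e-04). Within BXD r was 0.48 and within AXB/BXA 0.71, both called, but in the other inbred strains it was -0.12 (adjusted permutation p = 0.629). NZB/BlNJ and KK/HlJ, with 213 and 202.5 CPM of Gpx4 and 17.2 and 17.4 CPM of Aifm2, were among the latter. By rho the AXB/BXA value was not called (0.66, adjusted permutation p = 0.101). The difference between families was not tested.

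Slc3a2 and Slc7a11 had r = 0.41 (adjusted permutation p = 0.0020) but rho = 0.25 (adjusted permutation p = 0.0849). Without BXD43/RwwJ and BXH2/TyJ, the 2 strains farthest in Slc3a2, r was 0.25, so much of it rested on those strains, and it was called within none of the 3 families. Slc3a2 followed Trib3 (r = 0.40, rho = 0.19; adjusted permutation p = 3.0e-04 and 0.141), and r was 0.27 without the same 2 strains. Within BXD r was 0.48 (adjusted permutation p = 0.0036) and rho 0.37, which was not called (0.0898), and r was 0.36 without the 2 BXD strains farthest in Slc3a2. For Slc7a11 and Trib3, r was 0.35 and rho 0.10, and without BXH2/TyJ and BTBR T<+> tf/J r was 0.10. Gpx4 and Slc7a11 had r = 0.29, and 0.10 without BXH2/TyJ and NZB/BlNJ.

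Lpcat3 was lower where Nqo1 was higher (r = -0.30, rho = -0.19; adjusted permutation p = 0.0102 and 0.141), and r was -0.16 without NZB/BlNJ and BXD74/RwwJ. The substrate enzymes Acsl4 and Lpcat3 had r = 0.18 and rho = 0.22 over all strains, which were not called (adjusted permutation p = 0.106 and 0.0982). Within AXB/BXA r was 0.64 (adjusted permutation p = 0.0490) and rho 0.62, which was not called (0.103). On log2(TPM + 1), 23 relations were called and all were positive. Acsl4 and Lpcat3 were among them (r = 0.31, adjusted permutation p = 0.0039), while Cisd1 with Cd68 had r = -0.11 and Lpcat3 with Nqo1 -0.13, neither called.

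**Figure D5:**
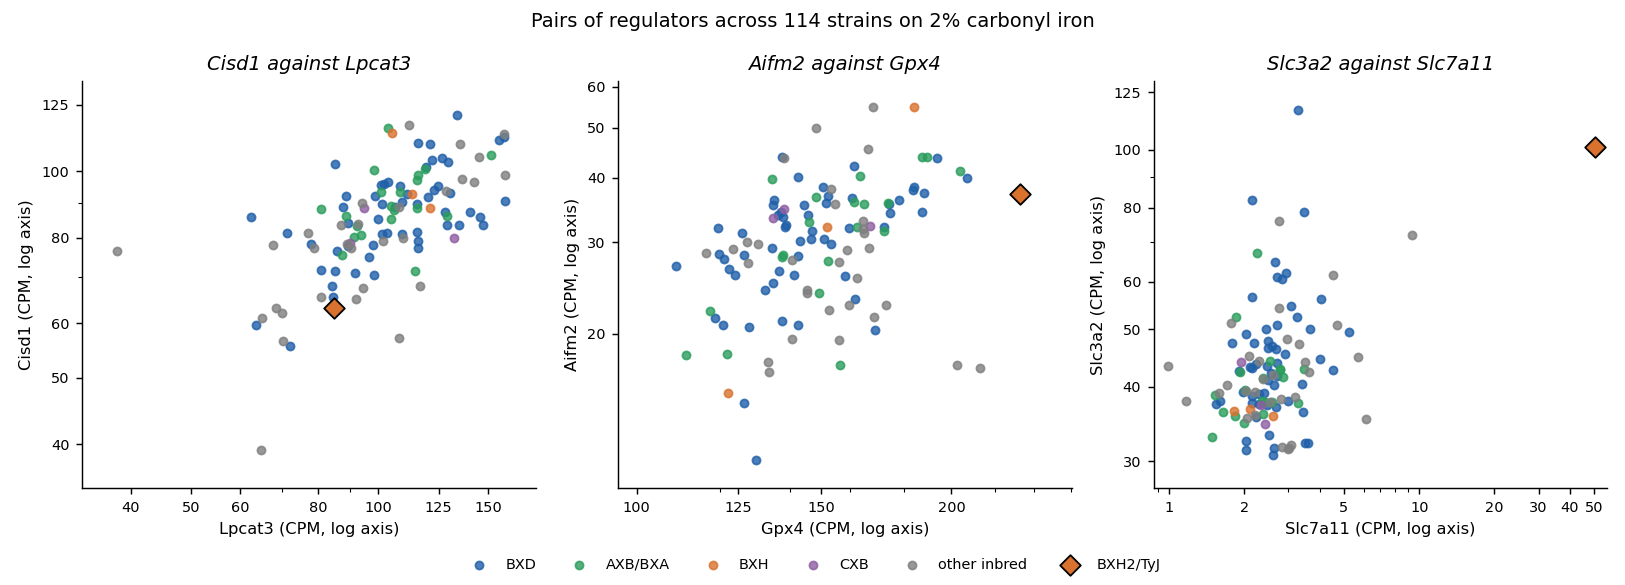
CPM of 3 pairs of members on log axes, 1 point per strain, coloured by family, with BXH2/TyJ as a diamond. Cisd1 and Lpcat3 rise together across the panel (r = 0.62), Gpx4 and Aifm2 do so apart from some other inbred strains (r = 0.37), and the Slc7a11 range is set by BXH2/TyJ.

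The genes whose log2 CPM followed each member most closely over the 114 strains were taken from 12017 genes averaging 1 CPM or more, as a description without a test. Such values share the library, its depth and its mix of cells. Cisd1 was nearest to Sdhb (r = 0.82), a subunit of respiratory complex II with iron-sulphur clusters, and to Ddt (0.78). Lpcat3 was nearest to Fads2 (r = 0.76), a desaturase of polyunsaturated fatty acids, and to Acaa1b (0.74), a peroxisomal thiolase. Aifm2 was nearest to Por (r = 0.75), the cytochrome P450 reductase, and to Rhbdd2 (0.73), which neighbour each other on chromosome 5. These 3 members had the closest partners, and their values without BXH2/TyJ were nearly the same.

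Gpx4 was nearest to Fth1 (r = 0.57), the ferritin heavy chain, and C1qbp (0.55). Without BXH2/TyJ both were at 0.52, and Slc25a39 (0.55) and Anapc5 (0.53) were slightly nearer. Slc3a2 was nearest to Arhgef2 (r = 0.66) and Rap1gap2 (0.60), and Acsl4 to Larp4 (0.54) and Ipo7 (0.53). For Acsl4 without BXH2/TyJ, Larp4 was at 0.51 and Idh3a came first (0.52). Slc7a11 was nearest to Tbc1d15 (r = 0.61) and Eaf1 (0.58), which fell to 0.45 and 0.25 without BXH2/TyJ. Ptgs2 was too sparse to be ranked.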

How the data were processed

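The authors deposited, for each study, a table of estimated counts per gene and a table of TPM, both by Ensembl identifier, with 1 column per mouse. Neither aligner nor counting strand is given in the sources used here; kallisto 0.46 and the mm10 build are named in the submitters' processing notes, without a role. The deposited counts were not whole (26.5% of values in the diet table) and were rounded to whole numbers for the count tests. Per the labels, 115 panel and 15 diet mice were grouped by strain and diet. Symbols and coordinates, counted from 1, came from GENCODE M21 (GRCm38).

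The quasi-likelihood test of edgeR 4.0.16 in R 4.3.3 was run with TMM factors, filterByExpr and Benjamini-Hochberg adjustment over all genes, on all 15 diet mice in 1 fit, and on BXD and AXB/BXA strains in another. The script was tested on simulated data. Log2 CPM used a prior count of 2. Strain relations used 100000 two-sided permutations in scipy 1.17.1, with 129X1/SvJ averaged. Alternatives were RLE factors, 2 filters, DESeq2 1.42.0, limma 3.58.1 on log2(TPM + 1) and log2(TPM + 0.1), the compared groups alone, and each mouse left out; for the panel, also the library labelled BXD65/RwwJ left out, all families in 1 fit, values centred within families, another prior count and substrains averaged. With 3 mice a group, an exact permutation test of 1 value cannot go below 0.1, so none was run. Depth was 9.41 M to 20.6 M counts, and limits for 0 counts use 3 counts.

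Members and lists were chosen with earlier results of these data known. Named genes were the 8 members, the 12 called list genes with the largest change on 2% iron against 50 ppm, and the 2 nearest genes of each member; other names were chosen after their values were seen, and 1 list gene, kept in the counts, is not reported here.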

Additional observations from a re-analysis of the deposited data

Results flagged for a closer look

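Among the 4 BXH strains, BXH2/TyJ stood apart from the other 3 for both subunits of the cystine importer. Its Slc3a2 level was 101 CPM, and the gap to the nearest BXH strain (36.7 CPM) took up 0.986 of the family's range, above the critical value of 0.829 for 4 samples. Its Slc7a11 level was 50.5 CPM, with a gap of 0.984 of the range to the nearest strain at 2.60 CPM. In all, 8 groups were tested and chance flags about 1 in 20 of them. Both values come from the same mouse.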

How the results depend on the processing

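No paired analysis was possible because the labels give mice of different diets no shared replicate numbers. Members called on 2% iron against 50 ppm numbered 1, and 2 with RLE factors, 3 with DESeq2, 2 with the compared groups alone, 2 with 500 ppm replicate 2 left out (an alternative chosen after seeing the data), and 1 to 2 with each mouse left out. Against 500 ppm they numbered 2, and 1 with the compared groups alone, 0 on log2(TPM + 1) and on log2(TPM + 0.1), and 0 to 2 with each mouse left out. Against chow they numbered 3, 0 on either TPM scale and 3 to 4 with each mouse left out. The wider list on 2% iron against 50 ppm had 15 genes called, and 5 to 13 with each mouse left out. The 21 relations became 10 without BXH2/TyJ, also chosen after seeing the data. Aifm2 on 2% iron against 50 ppm turned from -0.0035 to 0.0099 on log2(TPM + 1), and ran from -0.20 to 0.10 with each mouse left out, and Lpcat3 against chow from -0.15 to 0.032 on log2(TPM + 1). The cause was not tested. The median of all genes shifted by 0.10 and 0.14 in the TPM fits of 2% iron against chow, and by 0.11 and 0.14 in those of cellulose against 50 ppm. The other 116 values for the contrasts, the list and the relations were the same as, or within 1.5 times of, those reported. Only totals were compared in this way. On log2(TPM + 1) the 23 relations called were all positive, while the 21 were 14 positive and 7 negative, so no negative relation was kept there. Depth limits Slc7a11 in the diet study and Ptgs2 throughout.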
